A study of Mus musculus with 10 samples.

Results

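In testis, 56 alternative exons of mouse transcripts were more included, relative to their flanking exons, than in the median of 9 other tissues. They were drawn from 3126 alternative splicing events on a splicing array, of which 1041 had flanking exons bright enough to be judged. Each event carried 3 probes inside exons, namely the alternative exon A and its neighbours C1 and C2 on either side. Another 3 probes crossed splice junctions, C1:A and A:C2 (formed on inclusion) and C1:C2 (formed on skipping). The seventh, INT, has no stated role. The members were chosen on the testis values themselves. Both flanks had to read 2.1 or more in at least 8 of 10 tissues, testis included. The junction index, which averages C1:A with A:C2 and subtracts C1:C2, had to lie at least 0.8 above the median of the other 9 tissues. The body index, in which the average of both flanks is subtracted from A, had to lie at least 0.4 above. Of the eligible events, 5.38% met the rule. All testis differences in these indices and probes are therefore given as description, with no test.

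The groups were testis, brain, heart, muscle, liver, kidney, intestine, lung, spleen and salivary of CD1 mice, an outbred strain. Each was 1 pool of total RNA with no replicate, so no difference below can be set against variation between animals. The spread over the 9 tissues other than testis is given in its place. Neither age, sex nor the number of animals pooled is given in the labels used here. The deposited table numbers the events without naming genes, and no table at hand pairs them, so exons are called by event number, their functions are not stated, and the testis sample could not be checked against germ cell genes. Values run from 0 to 8.66 on a compressed scale of unstated base. Differences are in units of that scale, after each array was centred on its median, and are not folds. Array medians lay between 2.04 and 2.19 before centring. Probes differ in brightness for the same RNA, so an index of 0 marks no fixed share of inclusion. Only the same index or probe is compared between tissues.

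A cassette exon is one that the spliceosome either joins to both neighbours or leaves out with its flanking introns. The choice is set by splice site strength and by RNA-binding proteins that promote or repress use of the exon. Testis is known as a tissue with abundant alternative splicing, much of it in germ cells passing through meiosis and spermatid differentiation. Whole testis also holds Sertoli, Leydig and peritubular cells. In pooled tissue a shift in an isoform within 1 cell type and a shift in the mix of cell types cannot be told apart.

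Over the 56 members the junction index in testis lay a median of 1.20 units above the other tissues (range 0.83 to 3.04) and the body index 0.89 above (0.42 to 2.66). Medians over the eligible events were 0.12 and 0.02. The A probe was higher in testis by a median of 0.85 and the A:C2 junction by 1.21. C1:A was higher by 0.41. The skipping junction C1:C2 deviated by -0.36, C1 by -0.18 and C2 by -0.04. For the eligible events these medians were 0.19 (A), 0.25 (A:C2), 0.15 (C1:A), 0.10 (C1:C2), 0.11 (C1) and 0.25 (C2). With a shift of 0.4 units or more as the mark, A was higher in 39 of 56 members, against 40.2% of eligible events. A:C2 was higher in 41 (43% of eligible events) and C1:A in 28 (38.6%). C1:C2 was lower in 26 (24.8%). The rule used these probes, so the gaps between members and eligible events follow from the choice of members.

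**Figure D1:**
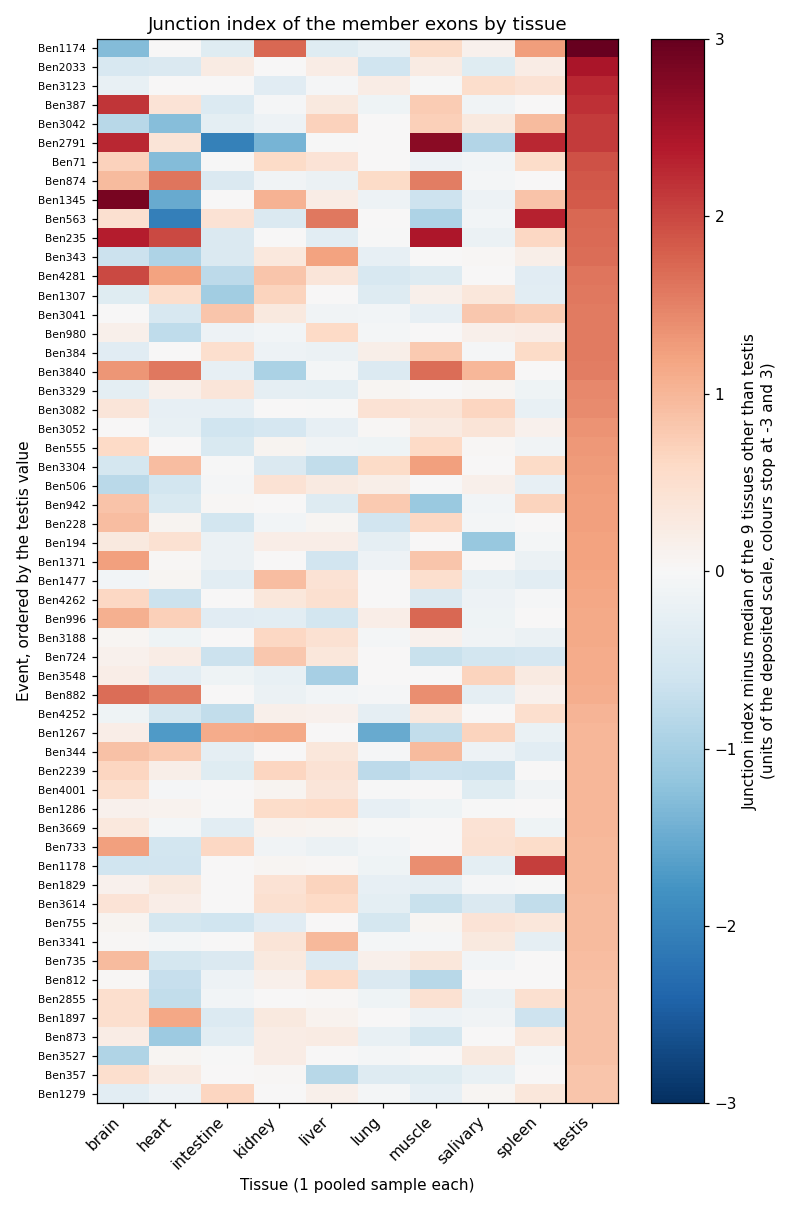
The colours give the junction index of each of the 56 members in each of the 10 tissues, minus the median of the 9 tissues other than testis, in units of the deposited scale. The testis column runs from 0.83 to 3.04 by choice of the members, while single tissues such as brain in Ben1345 or muscle in Ben2791 are as high or higher.

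The label of more inclusion held in a relative sense, and the probes that were shifted differed with the level of the transcript. Level was taken as the mean of C1 and C2. It was higher in testis by 0.4 or more in 17 members (42.3% of eligible events), lower by 0.4 or more in 17 (20.4%) and in between in 22. A minus its flanks must be higher in testis than in the others by the body threshold, although A itself may read below the flanks. The rule thus ties A to the level: with a higher level a higher A is fixed by the choice of members, and with a similar level it is favoured. Where the level was higher, both inclusion junctions were higher in 15 of 17, against 63.2% of eligible events with a higher level. Here A exceeded the other tissues by a median of 2.24, A:C2 by 2.26 and C1:A by 1.83, beyond C1 at 0.895, C2 at 1.40 and C1:C2 at 0.75. In the 22 with a similar level A had a median shift of 0.84. C1:C2 of these was lower in 10, against 23.7% of eligible events with a similar level, with a median of -0.38. Where the level was lower, A was higher in 4 of 17, against 7.55% of eligible events with a lower level, and its median shift was -0.12. In those 17 exons C1, C2 and C1:C2 had medians of -1.004, -1.02 and -1.27, whereas C1:A stood at 0.00 and A:C2 at 0.33. The split depended on scaling. Quantile normalization gives every array the same distribution of values. Under it the median level shift of eligible events moved from 0.19 to -0.09, so the move was not confined to the members. Of the members, 12 had a higher level, 18 a similar and 26 a lower one. Shares of eligible events in these groups are not given for that scaling.

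**Figure D2:**
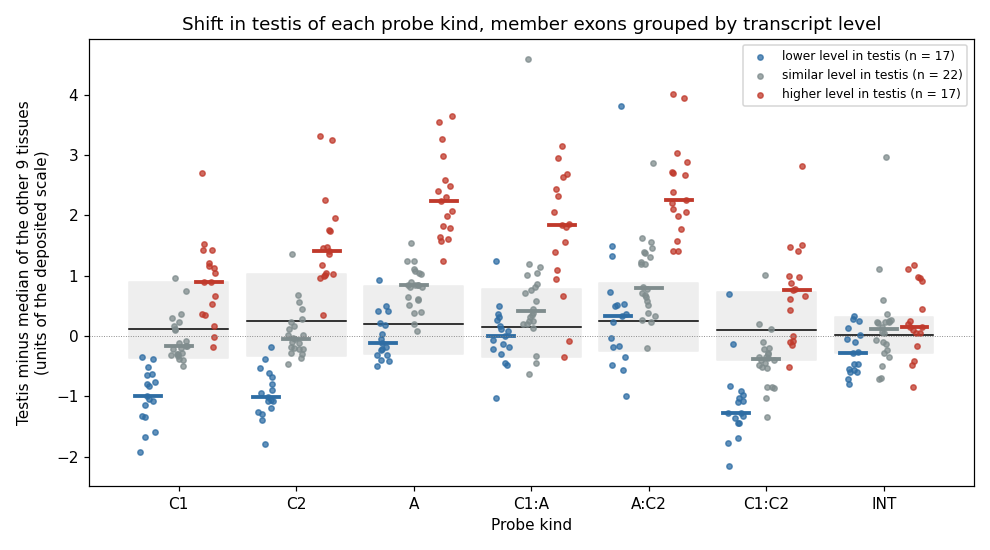
Each point is 1 member and 1 probe kind, placed by how far testis lay from the median of the remaining 9 tissues, in units of the deposited scale; colours mark the 3 level groups and thick bars their medians. Thin black lines and grey bands are the median and the interquartile range of the 1041 eligible events. In the lower-level group the flanks lie below 0 by choice of the group. C1:C2 lies below 0 in nearly all of its members, while A and the inclusion junctions lie around 0.

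The index was higher with brighter exon probes in the higher-level members, and mostly with dimmer flanks and skipping junction in the lower-level ones. The groups were cut on the flanks and the rule ties A to them. The flank and A parts of this contrast therefore follow from the grouping and are no finding about the exons. In 12 members (21.4%) neither inclusion junction was higher by 0.4 and C1:C2 alone was lower. The share of eligible events was about the same, 20.4%. Of these 12, 9 were in the lower-level group, which describes the members only, since the matching share of eligible events is not given. Both inclusion junctions were higher in 25 members (31.8%), with C1:C2 not lower in 22 of them (30.9%), and 3 showed the full exchange, with C1:C2 lower as well (0.865%). Of the 25, 15 had a higher level, against 278 of the 331 eligible events with both higher, which is a larger share. A single inclusion junction was higher in the remaining 19, with C1:C2 lower in 11 (3.55%) and not lower in 8 (14.5%). Set against the flanks of the same event, the inclusion junctions were higher by 0.4 or more in 47 of 56 (18.9%), with a median of 0.92. C1:C2 relative to the flanks was lower by that much in 27 (25.5%), with a median of -0.34.

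**Figure D3:**
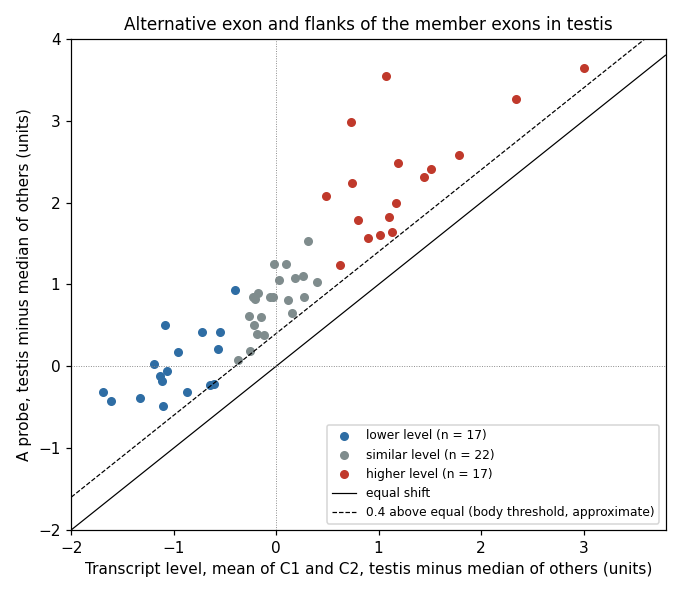
For each of the 56 members the shift of A in testis is plotted against the shift of its flanks (mean of C1 and C2), both as testis minus the median of the other 9 tissues in units of the deposited scale. The rule places nearly all points on or above the dashed line. It therefore also places members with a higher level at a higher A, while 4 of the 17 with a lower level have A higher by 0.4 or more.

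The largest shift was in event Ben1174. Its junction index read -0.44 in testis, against a lowest of -4.78 in brain, a median of -3.48 and a highest of -1.75 in kidney among the others. Testis stood clear of every other tissue. A read 4.59 in testis and from -0.07 in brain to 2.13 in intestine elsewhere, C1:A 4.83 against 0.52 to 3.73, and A:C2 4.09 against -0.07 to 1.78. C1:C2, at 4.90, deviated by -0.10 from its median elsewhere, and the flanks were higher by 0.36 (C1) and 1.01 (C2). All 3 probes that need the exon thus lay above their highest value in any other tissue, with the skipping junction inside its range.

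Ben2033 had the widest gap between testis and the next tissue of all members, 2.20 units. Its junction index was 0.46 in testis and lay between -2.59 in lung and -1.73 in intestine elsewhere, with a median of -1.98. A read 4.60 against at most 2.97, C1:A 4.67 against at most 3.72 and A:C2 3.62 against at most 1.59. C1:C2 read 3.68, close to the median of 3.82. The other 9 tissues spanned 0.85 units in the index, so the testis value lay far outside their spread. By the body index testis barely led, at 0.41 against 0.35 in muscle, with a median of -1.02 over the 9.

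The 3 exons with the full exchange included Ben387 and Ben3042. In Ben387 the index read 0.45 in testis and 0.40 in brain, against -2.13 in intestine to -0.96 in muscle in the remaining tissues. A read 4.56 in testis and 4.52 in brain, and C1:C2 was lowest in these tissues too, at 3.94 and 3.87. Testis and brain were thus closer to each other than the spread of the rest. In Ben3042 the index was -0.20 in testis, with a median of -2.30 and a highest of -1.36 in spleen elsewhere. Its C1:C2 read 3.02 against a median of 4.38, while A lay above its range elsewhere, 2.19 against 0.96 to 1.64. A:C2 of this event read 2.46 in testis but 4.41 in spleen and 4.30 in muscle, where A was at 1.36 and 1.26.

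**Figure D4:**
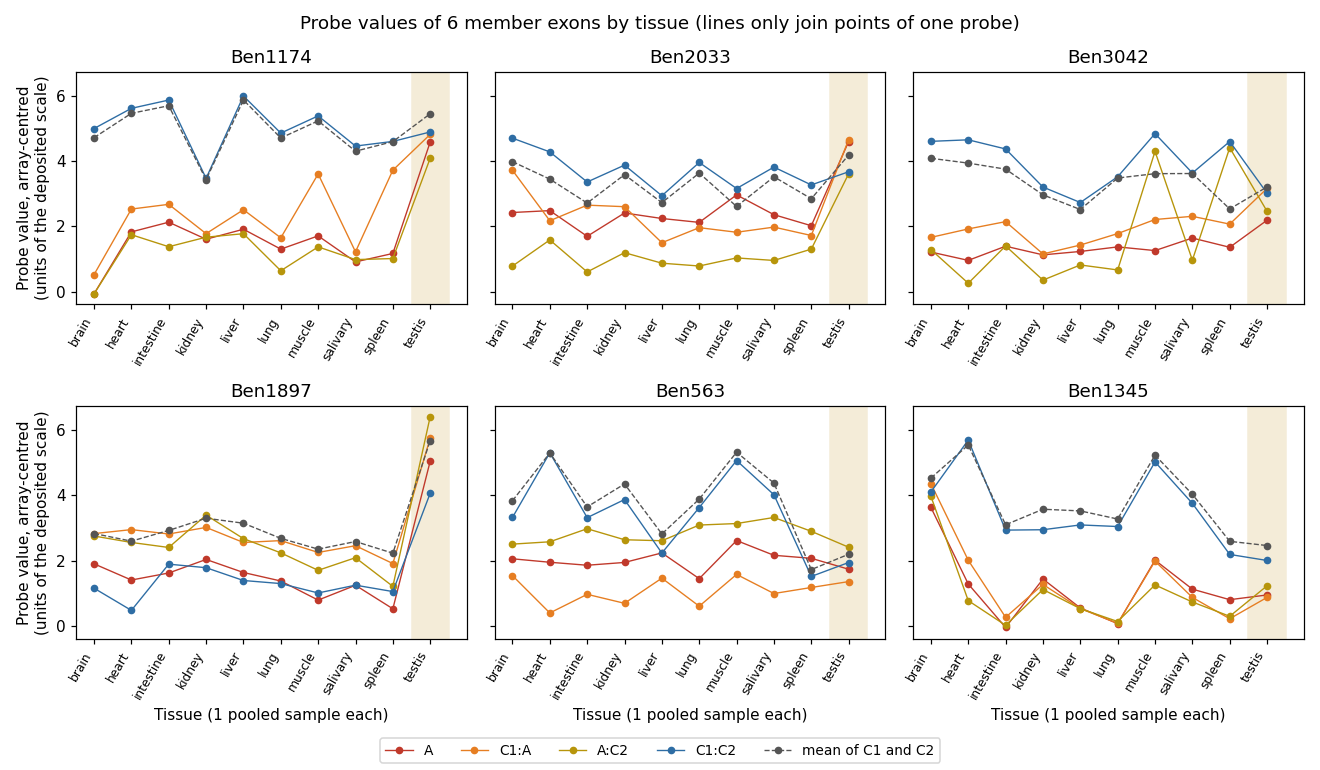
Array-centred values of A, the 3 junction probes and the mean of C1 and C2 are shown by tissue, in units of the deposited scale, for 6 members; each point is 1 pooled sample and the testis column is shaded. In Ben1174 and Ben2033 the exon and its junctions are highest in testis, in Ben1897 every probe shown is high, and in Ben563 the flanks and C1:C2 are low in testis.

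Among members with a higher level, Ben1897 and Ben724 had the largest level shifts. The flanks of Ben1897 averaged 5.68 in testis against 2.23 to 3.30 elsewhere, and A read 5.05 against 0.52 to 2.03. C1:C2 was also higher, 4.07 against 0.47 to 1.89, so both forms were more abundant and the index lay only 0.89 above the others, or 0.55 under quantile normalization, where it missed the threshold. Heart had a higher index than testis, 2.28 against 2.02. Ben724 had a level of 5.39 against 2.74 to 3.78, and A at 5.12 against 0.49 to 3.72. Its index, 1.03 in testis, was followed by kidney at 0.70, and its shift of 1.12 was 0.76 under quantile normalization, also under the threshold. Ben3329 and Ben3669 had the most even index over the 9 other tissues, spanning 0.65 and 0.73 units. Against this narrow spread testis stood at 0.85 in Ben3329, where the others ran from -0.88 to -0.23, and at 1.55 in Ben3669, where they ran from 0.25 to 0.98. In neither event did another tissue reach the testis value, although the shift of 0.99 in Ben3669 was 0.58 under quantile normalization.

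The members with a lower level included Ben563 and Ben228, whose flanks were the most reduced. Flanks of Ben563 averaged 2.19 in testis against a median of 3.89 elsewhere, and C1:C2 read 1.94 against 3.63. A was 1.73 against a median of 2.05 and no inclusion junction was higher by 0.4. Spleen, with the lowest flank level of all at 1.72, had a higher index than testis, 0.52 against -0.06. Liver, with a level of 2.82, had -0.20. Heart and muscle, with levels of 5.30 and 5.32, had the lowest indices, -3.82 and -2.71, while A stayed between 1.44 and 2.61 in all tissues other than testis. In this event the index was low where the flanks were bright and high where they were dim. For Ben228 the flanks read 2.92 against 3.76 to 5.46, C1:C2 2.91 against 3.94 to 5.42 and A 1.89 against a median of 2.31. Its index of -0.93 was the highest, followed by brain at -1.23.

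Dim probes were common in that group. INT probes, whose role is unstated and which need not be background, were used as a reference for low signal, with a median of 1.24 and a 95th percentile of 3.10 in testis. In the lower-level group A in testis exceeded the 95th percentile in 2 of 17 members, against 17% of eligible events with a lower level, and lay below the INT median in 7, against 13.7%. With a higher level A exceeded the 95th percentile in 17 of 17, against 69.1% of eligible events of that level. With a similar level it did so in 10 of 22, against 32.1%. Values stop at 0 before centring, so a dim A or inclusion junction has little room to fall when its transcript falls. The part of this floor in the index of these 17 exons was not tested. Over all members, 27 of 56 had A or a junction probe below the INT median in testis or in the median of the others (35.4% of eligible events). The mean of the inclusion junctions exceeded the 95th percentile in testis in 25 members (40.2%), and the size of the shift is least certain in the others. A probe was listed at 0 in some tissue in 20 members (29.4%), and in testis in 1 (3.75%).

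Ben3840 had a lower level and yet a brighter exon. Its A read 3.50 in testis against 2.05 to 3.40 elsewhere, while its flanks averaged 2.44, below the lowest of the other tissues at 2.48. The body index of 1.06 exceeded every other tissue, of which muscle was highest at 0.44. By the junction index, -0.24, testis fell behind muscle at -0.11 and heart at -0.21. Brain at -0.45 and salivary at -0.78 followed, while the remaining tissues lay lower, between -2.74 in kidney and -1.79 in spleen. Muscle, heart, brain and salivary each met the same rule when set against their own comparators. The higher index of this event was thus shared by testis with these tissues.

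The inclusion junctions did not always move together. A:C2 shifted more than C1:A in 42 of 56 members, and eligible events also leaned that way, in 57.5%. A:C2 alone was higher in 16 (11.2% of eligible events) and C1:A alone in 3 (6.82%). In Ben3123 C1:A read 6.90 in testis against 1.69 to 2.57 elsewhere, but A:C2 read 2.49 against a median of 2.69. A was 2.38 against 0.94 to 1.85, and C1:C2 was near its median, 3.43 against 3.32. The index of this event, 1.27 in testis and at most -0.48 elsewhere, therefore rested on C1:A alone among its 3 junction probes. In Ben3052 both inclusion junctions were higher, A:C2 by 3.95 and C1:A by 0.67. A:C2 read 4.45 against at most 1.13 and A 4.63 against at most 1.85, while C1:A, at 1.41, barely passed its highest value elsewhere, 1.38 in liver. In Ben344, named after its values were seen, A:C2 read 4.42 against 0.39 to 2.05 whereas A was at 0.04, close to the median of 0.02. Both A values lay near the lower limit, below the INT medians of testis (1.24) and of the others (1.20), so A gave little signal to judge the exon by. The higher body index of Ben344 went with a level that deviated by -1.20. Its C1:A deviated by -0.46 and its C1:C2 by 0.69, both away from more inclusion. Its junction index was thus higher through A:C2 alone. Like Ben344, Ben4281 and Ben1477 had only A:C2 higher among the inclusion junctions, by 1.37 and 1.20. Their A probes were higher by 0.85 and 0.38.

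Testis had the highest junction index of all 10 tissues in 41 members (21.2% of eligible events), was second in 9 and ranked lower in 6. It was highest in both indices in 31 (6.44%). The gap from testis to the highest of the others had a median of 0.38 units, against -0.45 over eligible events, and exceeded 0.4 in 25 (5.96%). The rule used these values, so both gaps follow in part from the choice of members. The other tissues also differed among themselves. Their range in the index had a median of 1.42 units, against 1.22 over eligible events, and in 40 members that range exceeded the testis shift (91.8% of eligible events, by the size of their shift). In those 40 the tissues other than testis lay farther apart than testis lay from their median.

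Brain was most often the highest of the 9 tissues other than testis, in 16 of 56 members, against 19.8% of eligible events. It lay below testis in 10 of these 16 and above it in 6. Liver was the highest of the 9 in 7 members, against 22%, and lung in 0, against 4.71%. Measured against the median of the 9 tissues without testis, the brain index was higher by 0.4 or more in 25 members (21.9% of eligible events) and lower by that much in 8 (13.4%). Muscle was higher in 18 (13.9%) and spleen in 16 (11.1%). Heart went more often the other way, lower in 20 (23.4%) and higher in 12 (15.2%). Intestine was lower in 15 (12.3%) and higher in 6 (8.65%). These counts are a description without a test.

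Ben1345 and Ben2791 varied most over the other tissues, by 4.37 and 4.74 units. In Ben1345 brain was far above testis, with an index of 0.06 against -0.95, and A at 3.63 against 0.94. The remaining tissues lay between -4.31 in heart and -1.76 in kidney. In testis A deviated by -0.18, A:C2 was higher by 0.50 and C1:A was at its median of 0.87, while the flanks, at 2.46, were the dimmest of all tissues. With columns as deposited the flanks of this event missed the minimum. In Ben2791 testis read 0.59, below muscle at 1.20 and below brain and spleen, both at 0.75, with intestine lowest at -3.54. A was dim everywhere, 0.80 in testis and -0.05 to 1.64 elsewhere, and C1:C2 in testis, 1.01, was below all others.

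Muscle and spleen also led in Ben1178, which had the testis value farthest below the highest tissue, 1.09 units under spleen. There C1:A read 6.65 in spleen and 6.44 in muscle, against 3.56 in testis and at most 4.15 elsewhere. A of the same event read 1.61 and 1.85 in spleen and muscle, its lowest values, and 3.44 in testis, its highest. By the body index testis led with -0.25, followed by spleen at -0.77. In this event C1:A and A ranked the tissues differently, since muscle and spleen had the highest C1:A and the lowest A. By the body index spleen was nevertheless second. In Ben3042 A:C2 of spleen and muscle likewise lay above testis and A below it, although A there was inside the range of the other tissues.

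In 18 of the 56 members another tissue met the same rule when set against its own 9 comparators, as in 15.2% of eligible events. It was brain in 10, heart in 5, kidney and muscle in 4 each, liver in 3, intestine in 2, and salivary and spleen in 1 each, with several tissues in some members. For Ben874 testis and heart were highest, at 0.23 and -0.01, and muscle followed, with a median of -1.62 over the 9. A read 2.73 in testis and 3.21 in heart. Ben882 and Ben235, named after their values were seen, met the rule in brain, heart and muscle. In Ben882 A read 3.10 in brain, 3.14 in heart, 3.33 in muscle and 2.59 in testis, against 1.10 to 1.54 in the remaining 6 tissues. Its flanks averaged 3.01 to 3.66 in all tissues, so the transcript was about evenly present. By its index testis, at -0.72, followed brain, heart and muscle at -0.14, -0.28 and -0.41. In Ben235 the same 4 tissues had A at 4.94 in brain, 2.64 in heart, 3.46 in muscle and 3.84 in testis, against 0.65 to 1.44 in the rest. In both events the 4 tissues did not overlap with the others in A.

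Some events lay close to the thresholds. Just inside the junction threshold were Ben1279 and Ben357, at 0.83 and 0.84, and just outside were Ben974 and Ben586, at 0.799 and 0.792. Just inside the body threshold were Ben1267 and Ben1371, both at 0.42, and just outside were Ben3858 and Ben1653, at 0.39 and 0.38. Of the 132 eligible events whose junction index passed (12.7%), 76 failed the body threshold, and in 34 of those the body index was below 0. The flanks passed in all 10 tissues in 40 members, in 9 tissues in 10 and in 8 tissues in 6, with the matching shares of eligible events not given.

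INT probes entered no index, although their testis values come from the same arrays. They were higher in testis by 0.4 or more in 9 members (19.1% of eligible events) and lower in 14 (17.3%), with a median of 0.05 against 0.01. Ben4281 had the largest INT shift of the 9, with INT at 4.28 in testis and 0.82 to 1.95 elsewhere. Its A read 2.06 against a median of 1.21, and brain was higher, at 2.76.

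Members with neighbouring numbers could belong to 1 gene, which the table does not say. Ben873 and Ben874, the former named after its values were seen, had the most similar flanks of any pair of members, differing by medians of 0.11 in C1 and 0.05 in C2 over the 10 tissues. Their A probes differed by a median of 0.59. The other 4 pairs within 3 numbers of each other ranked 111, 189, 525 and 829 of 1540 pairs in the likeness of their flanks, and the pair ranked 2 lay 2241 numbers apart.

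The same rule applied to each other tissue in turn gave 59 exons in brain (5.39% of its eligible events), 46 in muscle (4.12%), 40 in heart (3.55%) and 36 in kidney (3.12%). Liver and salivary had 27 each (2.41% and 2.42%), lung 16 (1.39%), spleen 14 (1.31%) and intestine 11 (0.957%). The mirrored rule for more skipping found 70 exons in testis (6.72%). The tissues serve as each other's comparators, so these counts are not independent of each other.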

How the data were processed

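Pooled total RNA of 10 tissues was measured on 1 splicing array each. The deposited table holds 21882 probe values, treated as a score: no label or header used here states the authors' scale, normalization or background correction. The values were shifted so that all arrays had the mean of the array medians, 2.12. Shifts of an array were at most 0.08 units, and a centred value can fall just below 0. Each tissue was set against the median of the other 9. No p-value was computed, because there is 1 sample per tissue and the members were chosen on the testis values. A shift of 0.4 units was the mark for counting a probe. The members and lists were chosen with earlier results of these data known. Events named were those with extreme shifts, levels, gaps or ranges, 2 per probe class, those nearest each threshold, and up to 4 that met the rule elsewhere. The calling step was tested on simulated data in which A and both inclusion junctions rose while C1:C2 fell. Other patterns and the real spread between tissues were not simulated, so that test does not cover most kinds of member found here. The planned gene lists were not applied, since events carry no gene names. Python 3.11.15, numpy 2.4.6 and pandas 2.3.3 were used. Precision is limited by the number of arrays. Alternatives covered scaling, comparator, thresholds, flank minimum and junction choice.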

Additional observations from a re-analysis of the deposited data

How the results depend on the processing

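The count of 56 exons depends on its thresholds. It was 108 with flanks at 1.5, 170 with no flank minimum, 85, 37 and 13 at junction thresholds of 0.6, 1 and 1.6, and 98 and 33 with any positive body shift and with a body threshold of 0.8. It was 25 with inclusion junctions above the 95th percentile of INT in testis and 31 where testis had to be highest in both indices. Under quantile normalization 60 exons met the rule, of which 43 were among the 56. Leaving out 1 comparator tissue gave 54 to 64 exons, with 50 to 55 of the 56 kept. The lower of both inclusion junctions gave 57, with 47 kept. With probes counted as shifted at 0.2 units, 4 members had C1:C2 lower alone, 14 had the full exchange, and 4 had 1 inclusion junction higher with C1:C2 not lower. At 0.8 units 1 had the full exchange, 1 had 1 inclusion junction higher with C1:C2 lower, and 14 with C1:C2 not lower. Level groups, whose alternatives were added after seeing the data, moved as well: 12 members had a similar level at a mark of 0.2, 11 a lower level at 0.8, and 26 a lower level under quantile normalization. Shares of eligible events are not given beside these class and level counts, which therefore describe the members only. Median shifts of the probe kinds kept their sign in the scalings and comparators tried, and all 9 counts for other tissues stayed within 1.5 times. Of 648 alternative values for the 27 members named, 647 moved by less than 1 SD over the other 9 tissues. Many of them had little or no room to move. Centring cancels in both indices, and a median often changes little when 1 tissue is left out. The exception was Ben3669 under quantile normalization. Ben357 (0.77) and Ben1371 (body 0.37) also missed the rule there, Ben344 (0.76), Ben882 (0.63), Ben1178 (0.76) and Ben1279 (0.78) against the mean of the others. Without one or another comparator tissue Ben873, Ben1267, Ben1279 and Ben1371 missed it, with body shifts of 0.35 in Ben1267 and 0.38 to 0.398 in Ben1371 and junction shifts of 0.77 in Ben873 and 0.797 in Ben1279. No paired analysis was possible because replicates are lacking. Causes of these shifts were not tested, except that a threshold changes a count by construction.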

Other observations

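A further 114 events passed both index thresholds in testis but not the flank minimum. Their flanks were too dim in testis or in more than the allowed number of tissues for the indices to be read with the same confidence, and they are not described here.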
